A study of Homo sapiens with 16 samples.

Results

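The comparison described here set the 8 libraries of H1 human embryonic stem cells that received Activin A or NODAL against the 8 that received neither, over all 16 libraries of the series. H1 is an established human pluripotent line. The cells were kept in E8, a defined medium holding FGF2, insulin, transferrin, selenite, ascorbate and TGFb, and were moved for 24 h to E7, which is E8 without TGFb. The 8 groups of 2 libraries each were E7 alone, E7 with TGFb at 1.74 ng/mL, E7 with Activin A at 100 ng/mL and E7 with NODAL at 100 ng/mL, each without and with 2DG (2-deoxyglucose, a glucose analogue that blocks glycolysis) at 3 mM. Below, "the Activin A or NODAL side" is the 4 groups with either of those proteins, and "the E7 or TGFb side" is the other 4. Every group was wild-type and shared the same base medium, so FGF2 and insulin were present on both sides. The sides were taken from the labels, and no measured value entered the choice. The labels name no batch and no day of culture, so a difference between the media and a difference in handling between these libraries cannot be told apart.

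Activin A and NODAL are secreted proteins of the TGFb superfamily that bind type II activin receptors with the type I receptors ALK4 or ALK7, and NODAL also needs a co-receptor such as TDGF1 (CRIPTO). TGFb binds other receptors, but all of these ligands lead to phosphorylation of SMAD2 and SMAD3, which enter the nucleus with SMAD4 and act with partners such as FOXH1. In human pluripotent cells this branch helps maintain the undifferentiated state, and stronger signalling drives mesendoderm, the precursor of mesoderm and endoderm. NODAL signalling turns on its own ligand gene and the genes of its secreted antagonists, LEFTY1 and LEFTY2.

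The values are reads per gene divided by a size factor for each library, called normalised reads here. They gave back between 14600479 and 17630329 whole reads per library. The number of reads limits precision mostly for genes below about 10 normalised reads, which were tested only where at least 2 libraries reached that value. The 2 libraries of a group differed beyond counting noise by amounts that were not alike. The chi-square per degree of freedom over genes was 1.58 for E7 with TGFb, 10 for E7 alone and 14.7 for Activin A with 2DG. It was 53.3 for the 2 libraries with Activin A and no 2DG, which stood farthest apart. Without those 2 libraries the comparison of the sides called 1811 genes in place of 2036. Of the 116 genes called in all 16 libraries that the naming rule covers, 94 kept their call without those 2. The labels do not say whether the 2 libraries of a group came from separate cultures, so p-values measure the spread between these samples only. RNA came from bulk cells, in which fewer cells of a type and less RNA per cell cannot be told apart.

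The labelled cell type was checked against markers. POU5F1 ranged from 31406 to 48152 normalised reads on the E7 or TGFb side and from 35023 to 63985 on the Activin A or NODAL side, and the summed level of 8 pluripotency markers lay between 132300 and 164525 in all 16 libraries. Of those 8 markers, 3 (SOX2, LIN28A and TDGF1) were lower on the Activin A or NODAL side and none was higher. TDGF1, the NODAL co-receptor, was lower by 0.22 on the Activin A or NODAL side. Its call was lost in 4 of 16 fits that left out 1 library, and after quantile scaling (limma, adjusted p = 0.14). All 5 mesendoderm markers (EOMES, T, MIXL1, GSC and LHX1) were called higher on the Activin A or NODAL side, although EOMES and T with NODAL overlapped the other side. Their summed level was 569 to 1799 against 205 to 236 without 2DG, and 129 to 1549 against 58.7 to 81.4 with it. MIXL1 alone was 486 to 1510 and 89 to 1300 of these sums on the Activin A or NODAL side. Values existed for 3 of 6 fibroblast markers, none of them called, and their sum was 871 to 1248 against 898 to 1128. Values existed for 4 of 5 neuroectoderm markers, of which PAX6 and SOX1 were higher and SOX3 was lower. Their sum was 386 to 715 against 568 to 699. Values existed for 3 of 6 trophoblast markers, of which KRT7 was lower, and for none of 5 endothelial and blood markers.

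Across 16714 genes tested, 1078 genes (6.45%) were higher on the Activin A or NODAL side and 958 (5.73%) were lower, 2036 (12.2%) in all, at an adjusted p under 0.05 (limma on log2 normalised reads, with 2DG as a covariate and Benjamini-Hochberg adjustment). A log2 change of at least 1 in size was reached by 171 of the higher and 102 of the lower genes. The median log2 change of all tested genes was -0.004. For 327 of the higher and 300 of the lower genes, the 8 libraries of one side did not overlap with the other side in either 2DG state. Over all genes tested, such separation was seen for 332 upwards (1.99%) and 310 downwards (1.85%). Within a single 2DG state, 4 libraries against 4, the sides did not overlap for 1187 genes upwards (7.1%) and 1040 downwards (6.22%) without 2DG, and for 1009 (6.04%) and 1151 (6.89%) with it. The share of calls moved with base composition: called higher genes had a median GC content of 55.8%, called lower genes 43.4% and all tested genes 48%, and its part in the result was not tested, although 1615 of the 2036 calls remained after trends in GC content and length were removed from each library. With 1 averaged value per group, 4 against 4, the test called 201 genes, and without the libraries of the TGFb medium it called 255.

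The rises of LEFTY2 and LEFTY1, the secreted antagonists of the NODAL loop, were the largest among the named genes. LEFTY2 (GRCh38, chr1:225936598-225941489, minus strand), which binds NODAL and its co-receptor and blocks them, stood at 148 and 114 normalised reads in E7, 102 and 126 with TGFb, 535 and 442 with NODAL and 3253 and 2381 with Activin A. With 2DG the values were 4.74 and 13.1 in E7, 4.9 and 6.53 with TGFb, 50.9 and 54.4 with NODAL and 1623 and 921 with Activin A. All 8 libraries of the Activin A or NODAL side lay above the E7 or TGFb libraries of the same 2DG state, although the NODAL libraries with 2DG lay below the E7 or TGFb libraries without it. The difference between the sides was 4.15 ± 0.65 (log2, SE, n = 8 against 8; limma, adjusted p = 0.00054). Its neighbour LEFTY1 (chr1:225886282-225911382, minus strand), the other member of the pair, was 463 and 613 in E7, 446 and 463 with TGFb, 1749 and 1691 with NODAL and 4829 and 2993 with Activin A. With 2DG it was 20.9 and 30.5 in E7, 22.6 and 19.6 with TGFb, 237 and 232 with NODAL and 2643 and 1484 with Activin A. Again the sides did not overlap within a 2DG state, and the log2 difference was 3.60 ± 0.49 (SE; limma, adjusted p = 0.00014). LEFTY1 and LEFTY2 are near-identical copies, so reads that match both could have been divided between them or dropped, and the separate levels are uncertain to that extent.

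NODAL, the transcript of the cells' own gene (chr10:70432315-70447951, minus strand), followed the same order of media. It was 765 and 825 normalised reads in E7, 616 and 573 with TGFb, 1106 and 1093 with NODAL protein and 2857 and 1839 with Activin A. With 2DG it was 244 and 291 in E7, 246 and 177 with TGFb, 581 and 574 with NODAL protein and 2049 and 1885 with Activin A. The sides did not overlap in either 2DG state, and the log2 difference was 1.69 ± 0.28 (SE; limma, adjusted p = 0.00088). INHBA, which encodes the activin A subunit, went the other way: it was 11.5 to 26.2 in the E7 or TGFb libraries without 2DG and 33.7 to 57.8 with it, against 0.94 to 13.7 and 3.82 to 14.5 on the other side. The INHBA difference was -2.07 ± 0.36 (SE; limma, adjusted p = 0.0011), and the sides overlapped without 2DG. With 1 value per group the adjusted p was 0.056 for NODAL and 0.054 for INHBA, and without the TGFb medium it was 0.06 and 0.064.

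Of 19 tested ligands, co-receptors and extracellular inhibitors of this branch, 6 rose and 4 fell, against 6.45% and 5.73% of all genes, with a median of 0.00 beside -0.004 for all genes. Those shares of all genes, 6.45% and 5.73%, stand beside every list count of the side comparison below. Of 15 receptors and SMAD proteins, 3 rose and 1 fell (1 to 2 fell when any 1 library was left out), with a median of 0.02. With 1 value per group 0 of them passed. SMAD3, the signal transducer, was 745 to 1114 on the E7 or TGFb side and 917 to 1878 on the Activin A or NODAL side, a log2 difference of 0.65 ± 0.14 (SE; limma, adjusted p = 0.0053, and 0.1 with 1 value per group). The sides overlapped for SMAD3 over all 16 libraries but not within a 2DG state. FOXH1, the DNA-binding partner, had a pooled difference of 0.00 (limma, adjusted p = 0.99), but its levels moved in opposite directions in the 2DG states. Without 2DG it was 783 to 1070 on the Activin A or NODAL side against 720 to 800, with overlap. With 2DG it was 816 to 1060 against 1100 to 1280, with no overlap.

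**Figure D1:**
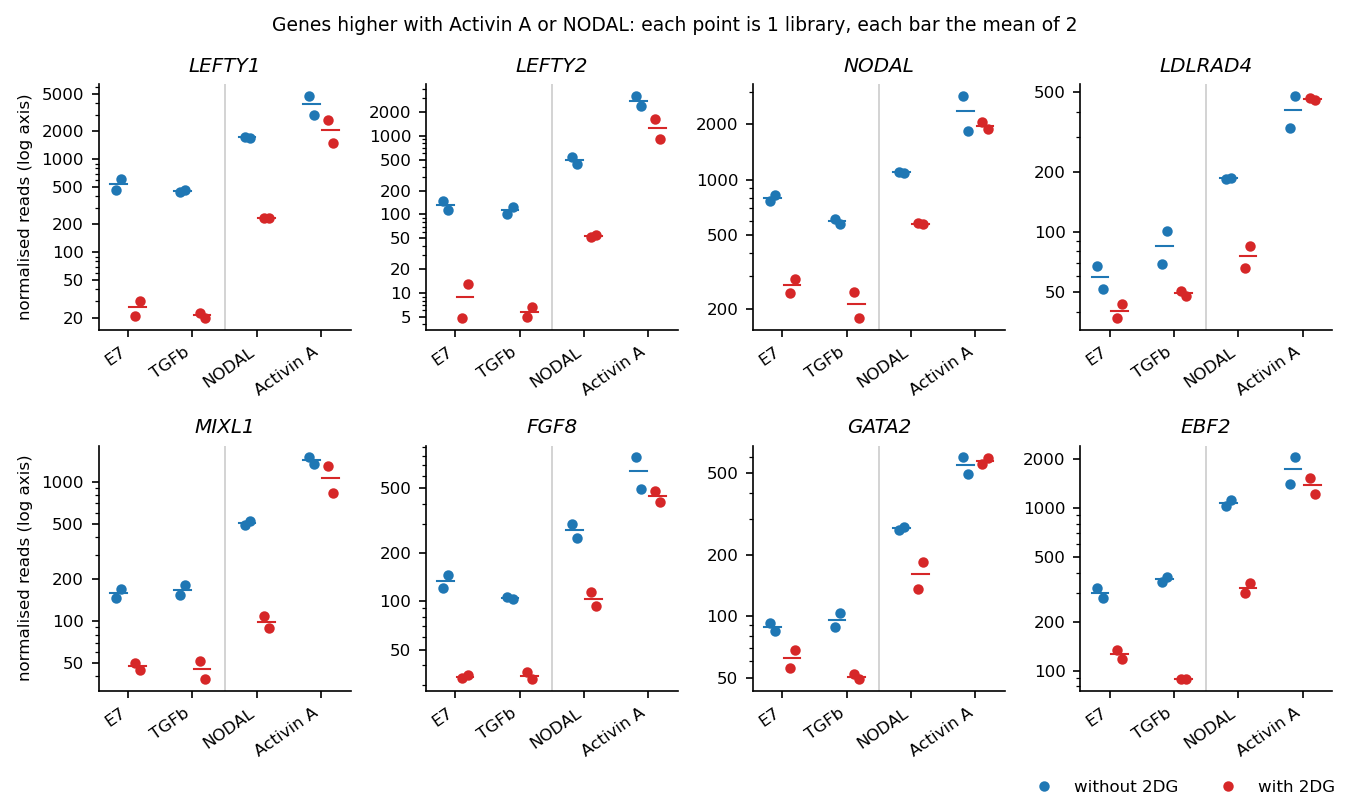
Normalised reads (log axis) of 8 genes higher on the Activin A or NODAL side, by medium. Each point is 1 library, each bar the mean of 2, blue is without and red with 2DG, and a grey line separates the sides; in each panel the Activin A libraries lie above the NODAL libraries, and both lie above E7 and TGFb of the same 2DG state.

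Brakes that act inside the cell or at the receptor were the second group. Of 17 tested, 5 rose and none fell, against 6.45% and 5.73% of all genes, with a median log2 change of 0.11. With 1 value per group 1 passed as higher, and 3 did without the TGFb medium or without the plain E7 medium. LDLRAD4, a membrane protein that keeps SMAD2 and SMAD3 from the receptor, was 51.8 to 101 in the E7 or TGFb libraries without 2DG and 37 to 51 with it. It was 185 and 186 with NODAL, 66.3 and 84.8 with NODAL and 2DG, 329 and 480 with Activin A, and 466 and 456 with Activin A and 2DG. The sides did not overlap within a 2DG state, and the log2 difference was 1.99 ± 0.35 (SE; limma, adjusted p = 0.0012). PMEPA1, a relative of LDLRAD4 that also holds back SMAD2 and SMAD3, was 479 to 736 on the E7 or TGFb side and 746 to 1884 on the other side, so that all 16 libraries separated, with a difference of 1.10 ± 0.18 (adjusted p = 0.00064). SMAD6, an inhibitory SMAD best known in BMP signalling, was 107 to 183 against 171 to 396 and rose by 0.92 ± 0.12 (adjusted p = 0.00013). SMAD7, the inhibitory SMAD that recruits ubiquitin ligases to the type I receptor, rose by 0.58 ± 0.14 (adjusted p = 0.011). BAMBI, a pseudoreceptor without a kinase, rose by 0.85 ± 0.16 (adjusted p = 0.002). SKIL, a SMAD co-repressor that is a usual SMAD2 and SMAD3 target, had a difference of 0.09 (adjusted p = 0.46). With 1 value per group the adjusted p was 0.064 for LDLRAD4, 0.055 for PMEPA1, 0.072 for BAMBI and 0.15 for SMAD7, while SMAD6 stayed called.

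Of 19 mesendoderm regulators tested, 9 rose and 2 fell, with a median log2 change of 0.56. With libraries of a group allowed to correlate 6 passed as higher, and with 1 value per group 2 did. MIXL1, a homeobox factor of the primitive streak, was 147 and 168 normalised reads in E7, 153 and 182 with TGFb, 486 and 522 with NODAL and 1513 and 1336 with Activin A. With 2DG it was 50.3 and 44.6, 52 and 38.1, 108 and 89, and 1299 and 832 in the same order of media. The sides separated within each 2DG state, and the log2 difference was 2.58 ± 0.44 (SE; limma, adjusted p = 0.0011). FGF8, a growth factor of the streak, was 103 to 146 in the E7 or TGFb libraries without 2DG and 32.6 to 36.3 with it, against 248 to 787 and 93.2 to 481, a difference of 2.21 ± 0.31 (adjusted p = 0.0002). GSC, the homeobox factor of the organizer, was 16.2 to 21 and 4.9 to 9.79 against 40.1 to 72.5 and 16.8 to 65.9, a difference of 1.83 ± 0.25 (adjusted p = 0.00014). WNT3, whose protein helps start gastrulation, was 132 to 154 and 52.9 to 88.1 against 248 to 561 and 124 to 532, a difference of 1.58 ± 0.28 (adjusted p = 0.0013). FGF8, GSC and WNT3 did not overlap between the sides within a 2DG state. With 1 value per group the adjusted p was 0.061 for MIXL1 and 0.067 for WNT3.

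Other streak factors differed between the 2 media. EOMES, a T-box factor of mesendoderm, was 3.26 to 15 on the E7 or TGFb side, 6.36 to 15.9 with NODAL and 30.1 to 123 with Activin A. The NODAL libraries thus overlapped the E7 or TGFb range, and Activin A stood above NODAL by 2.76 (limma, adjusted p = 6.7e-06). The pooled log2 difference was 1.63 ± 0.51 (limma, adjusted p = 0.044), and without the Activin A medium it was 0.25 (adjusted p = 0.61). The call of EOMES was kept without any one of the 4 NODAL libraries or without replicate 1 of TGFb with 2DG, and it was lost without any other single library, at adjusted p from 0.061 to 0.084. T (brachyury), another T-box factor, was 1.09 to 9.13 on the E7 or TGFb side, 2.72 to 9.51 with NODAL and 15 to 43.3 with Activin A. Activin A stood above NODAL by 2.21 (adjusted p = 0.0011), and the pooled difference was 1.41 ± 0.45 (adjusted p = 0.049). That call was kept without any one of the 4 NODAL libraries or without replicate 2 of E7 and lost without any other single library, at adjusted p from 0.056 to 0.093.

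Because NODAL and MIXL1 rose together, their promoters are shown with the letters that SMAD proteins and FOXH1 are known to read. Each is the 250 bases before the RefSeq start (GRCh38.p14), 5′ to 3′ on the gene's strand, with matches in capitals: TGTGGATT, a FOXH1 motif, and CAGAC, a SMAD motif, searched on both strands (CAGAC on the other strand reads GTCTG). MIXL1 lies at chr1:226223414-226223663 on the plus strand and NODAL at chr10:70441682-70441931 on the minus strand.
MIXL1: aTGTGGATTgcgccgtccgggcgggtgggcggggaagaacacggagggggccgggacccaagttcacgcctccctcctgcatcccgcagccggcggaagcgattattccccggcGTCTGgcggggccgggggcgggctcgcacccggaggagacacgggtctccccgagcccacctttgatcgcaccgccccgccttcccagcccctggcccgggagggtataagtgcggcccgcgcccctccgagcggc
NODAL: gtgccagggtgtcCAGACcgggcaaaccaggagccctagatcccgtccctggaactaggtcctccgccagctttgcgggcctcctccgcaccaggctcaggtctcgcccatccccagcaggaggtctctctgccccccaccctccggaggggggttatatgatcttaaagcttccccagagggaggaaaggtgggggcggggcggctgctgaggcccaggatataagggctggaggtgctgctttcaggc
The MIXL1 window held TGTGGATT 249 bases upstream and 1 SMAD motif 136 bases upstream, and the NODAL window held 1 SMAD motif 237 bases upstream and no TGTGGATT. TGTGGATT was in 0.709% and CAGAC in 38% of 35116 RefSeq promoter windows of that length. Among matched genes, TGTGGATT was in 0.806% of the 744 called higher, 0.708% of the 706 called lower and 0.585% of all 11105 tested. CAGAC was in 47.8%, 42.5% and 44.3% of the same sets. A match describes these letters and is not a binding site.

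The 12 largest rises and falls named here are those of called genes whose higher side averaged at least 100 normalised reads. Their sides also did not overlap in either 2DG state. Among the 12 rises of this naming rule, several lie outside the lists of streak and NODAL genes. GATA2, a zinc-finger factor of blood and trophoblast that is also a BMP target, was 84.2 to 103 in the E7 or TGFb libraries without 2DG and 49 to 68.5 with it. It was 264 and 273 with NODAL, 136 and 184 with NODAL and 2DG, 602 and 494 with Activin A, and 554 and 593 with Activin A and 2DG. All 16 libraries separated by side for GATA2, with a log2 difference of 2.23 ± 0.26 (SE; limma, adjusted p = 6e-05). EBF2, a helix-loop-helix factor of mesodermal and adipose lineages, was 278 to 377 and 88.1 to 133 against 1028 to 2072 and 299.7 to 1536, a difference of 2.34 ± 0.28 (adjusted p = 7.2e-05). HEY1, a repressor downstream of Notch and BMP, was 87.1 to 137 and 10.9 to 28.4 against 305 to 1353 and 38.7 to 970, a difference of 2.79 ± 0.54 (adjusted p = 0.0025, and 0.077 with 1 value per group). MMP9, a secreted gelatinase, rose by 2.51 ± 0.37 (adjusted p = 0.00027). BTNL9, a butyrophilin-like surface protein, was 8.12 to 18.2 on the E7 or TGFb side and 18.8 to 227 on the other, and rose by 2.72 ± 0.43 (adjusted p = 0.00053). CCDC92 rose by 2.54 and CCDC177 by 2.36, both coiled-coil proteins, and NELL1, a secreted protein of bone formation, by 2.18 (adjusted p = 0.0002, 0.00054 and 0.00013).

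BMP targets and ID genes had 6 of 15 members higher (4 with libraries of a group allowed to correlate) and 1 lower, with a median of 0.52; GATA2, SMAD6, BAMBI and TBX3 were among the risers. TBX3, a T-box repressor, rose by 0.81 ± 0.22 from low levels, 7.66 to 26.2 against 18 to 28.2 normalised reads (limma, adjusted p = 0.019). The WNT list had 6 of 22 higher and 2 lower, with a median of 0.00, and with libraries of a group allowed to correlate 3 were higher. FZD5, a WNT receptor, was 1253 to 2249 against 1916 to 5277 and rose by 1.10 ± 0.16 (adjusted p = 0.00028). FZD7, another WNT receptor and a surface marker of human pluripotent cells, fell by 0.57 (adjusted p = 0.014), with -0.96 for Activin A and -0.19 (adjusted p = 0.062) for NODAL against the same libraries. The FZD7 call was lost with 1 value per group (0.15), without the TGFb medium (0.14), without the plain E7 medium (0.13) and without the 2 libraries with Activin A and no 2DG (0.059). Leaving out replicate 2 of E7 with 2DG, either replicate of TGFb with 2DG, or replicate 1 of Activin A with 2DG left 3 WNT genes higher in place of 6.

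Neural factors fell more often than they rose. Of 22 tested, 7 fell and 2 rose, with a median log2 change of -0.36, and with libraries of a group allowed to correlate 6 fell. OLIG3, a helix-loop-helix factor of the dorsal neural tube (chr6:137492202-137494250), was 42.1 and 52.8 normalised reads in E7, 57.7 and 41.2 with TGFb, 5.28 and 7.54 with NODAL and 1.88 and 2.82 with Activin A. With 2DG it was 118 and 145, 142 and 156, 27.2 and 40.8, and 5.73 and 5.37 in the same order. Every library of the Activin A or NODAL side lay below every other library, and the difference was -3.27 ± 0.34 (SE; limma, adjusted p = 1.9e-05). SOX21, a neural progenitor factor that opposes pluripotency, was 298 to 339 and 418 to 550 against 55.6 to 213 and 105 to 351, a difference of -1.45 ± 0.28 (adjusted p = 0.0022). NEUROG3, a proneural factor better known from the endocrine pancreas, was 88.1 to 131 and 198 to 219 against 13.1 to 56 and 37.3 to 194, a difference of -1.53 ± 0.35 (adjusted p = 0.0074). Both separated within a 2DG state. The adjusted p with 1 value per group was 0.077 for SOX21 and 0.13 for NEUROG3.

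SOX3, an early neuroectoderm factor, differed between the media: it was 237 to 324 on the E7 or TGFb side, 225 to 303 with NODAL and 70.4 to 106 with Activin A (Activin A against NODAL -1.58; limma, adjusted p = 1.3e-06). Its pooled difference was -1.01 ± 0.28 (limma, adjusted p = 0.022), and without the Activin A medium it was -0.22 (adjusted p = 0.088). Tests on whole reads left SOX3 above the threshold, with an adjusted p of 0.054 in edgeR and 0.059 in DESeq2, and so did the fit without the 2 libraries with Activin A and no 2DG (0.069). POU3F1 (OCT6), a primed-state and neural factor, was 81.4 to 113 on the E7 or TGFb side, 99.9 to 113 with NODAL and 29.1 to 45.8 with Activin A, and the pooled difference of -0.63 missed the threshold (adjusted p = 0.14). It was -1.4 without the NODAL medium (adjusted p = 5.9e-06) and 0.14 without the Activin A medium (0.4). PAX6, the eye and forebrain factor, was one of the 2 that rose, from 2.85 to 14.1 on the E7 or TGFb side to 9.42 to 39.8 on the other (1.09 ± 0.30, adjusted p = 0.022). PAX6 counts were low and overlapped, and its adjusted p was 0.12 without the Activin A medium and 0.24 without the TGFb medium.

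Pluripotency genes moved by small amounts. Of 22 core genes, 10 fell and 1 rose (0 to 2 rose when any 1 library was left out), with a median of -0.19; scaling by quantiles gave 4 lower and 3 higher, and libraries of a group allowed to correlate gave 5 lower. SOX2, a core factor that is also a neural one, was 4581 to 5352 on the E7 or TGFb side and 3935 to 4550 on the other, with no overlap, a difference of -0.25 ± 0.05 (limma, adjusted p = 0.0038; 0.058 after quantile scaling). PRDM14, a repressor that protects pluripotency, was 1066 to 1469 without 2DG and 1502 to 1685 with it on the E7 or TGFb side, against 633 to 832 and 748 to 1429, and fell by 0.71 (adjusted p = 0.00083). JARID2, a subunit of the PRC2 repressor complex, fell by 0.60 (adjusted p = 0.004), and MYCN, a MYC family factor, by 0.52 (adjusted p = 0.0066). POU5F1 differed by 0.25 (adjusted p = 0.12) and NANOG by 0.16 (adjusted p = 0.12), neither past the threshold. With 2DG their sides did not overlap, at 37700 to 46600 against 31400 to 34300 for POU5F1 and 4200 to 5080 against 3700 to 3950 for NANOG. Without 2DG the sides overlapped. Both genes passed with quantile scaling (adjusted p = 0.004 and 0.02), scaling to the same total (0.041 and 0.027), a mean for each group (0.034 and 0.043) and library weights (0.011 and 0.01). POU5F1 also passed without the NODAL medium (0.03) and without replicate 2 of NODAL (0.037). In the primed-state list, 7 of 20 fell and none rose. NLGN4X, an adhesion protein, fell by 0.64, from 2182 to 3448 to between 1331 and 2233 normalised reads. With 1 value per group only 1 core gene and 1 primed gene remained lower, and the adjusted p of PRDM14 was 0.056.

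**Figure D2:**
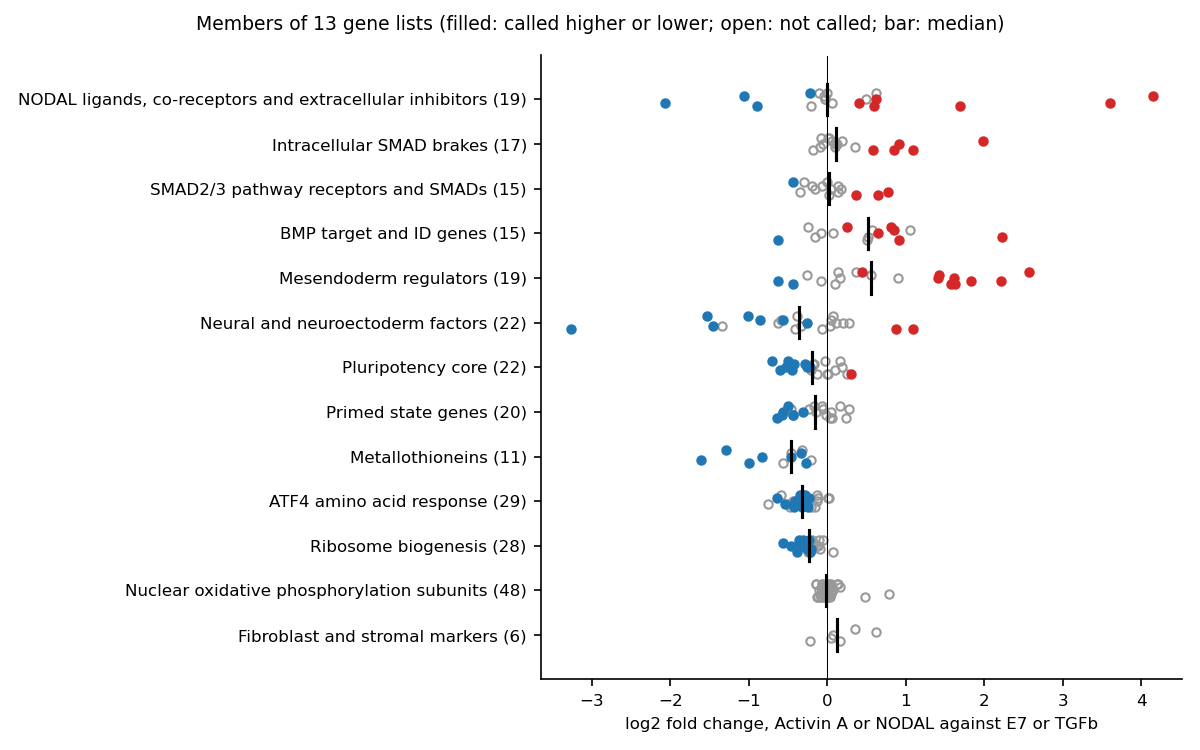
Log2 change (x axis) of each tested member of 13 gene lists, with the number tested in brackets. Filled points passed the test (red higher, blue lower), open points did not, and the black bar is the median, which is 0.56 for mesendoderm regulators, -0.36 for neural factors and -0.46 for metallothioneins.

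Counts of list members depended on which medium was left out, and the cause was not tested. Without the TGFb medium, 2 mesendoderm regulators, 3 brakes and 3 BMP targets passed as higher, and 1 neural factor, 1 core pluripotency gene and 3 metallothionein list members passed as lower. Without the plain E7 medium, the higher counts of these lists were 6, 3 and 4, and the lower counts were 3, 3 and 3, in the same order. Without the Activin A medium 5 mesendoderm regulators passed as higher, and without the NODAL medium 14 neural factors passed as lower.

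Among the 12 falls of the same naming rule, several lie outside the neural and metallothionein lists. OLIG3, with a larger fall than these, averaged 94.2 on its higher side and is not among the 12. P2RY1, a receptor for ADP, was 4330 and 3910 normalised reads in E7, 4235 and 4201 with TGFb, 2699 and 2547 with NODAL and 573 and 838 with Activin A. With 2DG it was 3981 and 3368, 3575 and 3469, 2491 and 2599.5, and 801 and 738 in the same order. All 16 libraries separated, with a difference of -1.49 ± 0.31 (SE; limma, adjusted p = 0.0039, and 0.1 with 1 value per group). IDO1, which starts tryptophan breakdown, was 106 to 121 and 187 to 222 against 19.8 to 61.3 and 30.6 to 103, a difference of -1.72 ± 0.24 (adjusted p = 0.00017). CUZD1, a membrane protein with CUB and zona pellucida domains, was 129 to 184 in the E7 or TGFb libraries without 2DG and 1077 to 1194 with it. It was 64.4 and 68.8 with NODAL, 309 and 260 with NODAL and 2DG, 46 and 27.3 with Activin A, and 99.3 and 250.4 with Activin A and 2DG, a difference of -2.05 ± 0.22 (adjusted p = 2.8e-05). CUZD1 thus separated by side within each 2DG state while 2DG itself moved it further. DHRS3, which reduces retinaldehyde, was 57.7 to 150.1 on the E7 or TGFb side and 3.75 to 85.4 on the other, and fell by 2.04 ± 0.42 (adjusted p = 0.0042, and 0.085 with 1 value per group). MAP2, a neuronal microtubule protein, fell by 1.61, and GDPD2, a phosphodiesterase of membrane lipids, by 1.39 (adjusted p = 0.00088 and 0.00016).

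CYP1B1, a cytochrome P450 that oxidises steroids and retinoids, was one of the lower genes that stood lowest with NODAL. It was 169 and 152 in E7, 154 and 161 with TGFb, 112 and 114 with Activin A and 23.2 and 36.8 with NODAL. With 2DG it was 189 and 202, 199 and 232, 168 and 147, and 41.8 and 31.4 in the same order of media. The difference between the sides was -1.43 ± 0.34 (limma, adjusted p = 0.01, and 0.14 with 1 value per group).

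**Figure D3:**
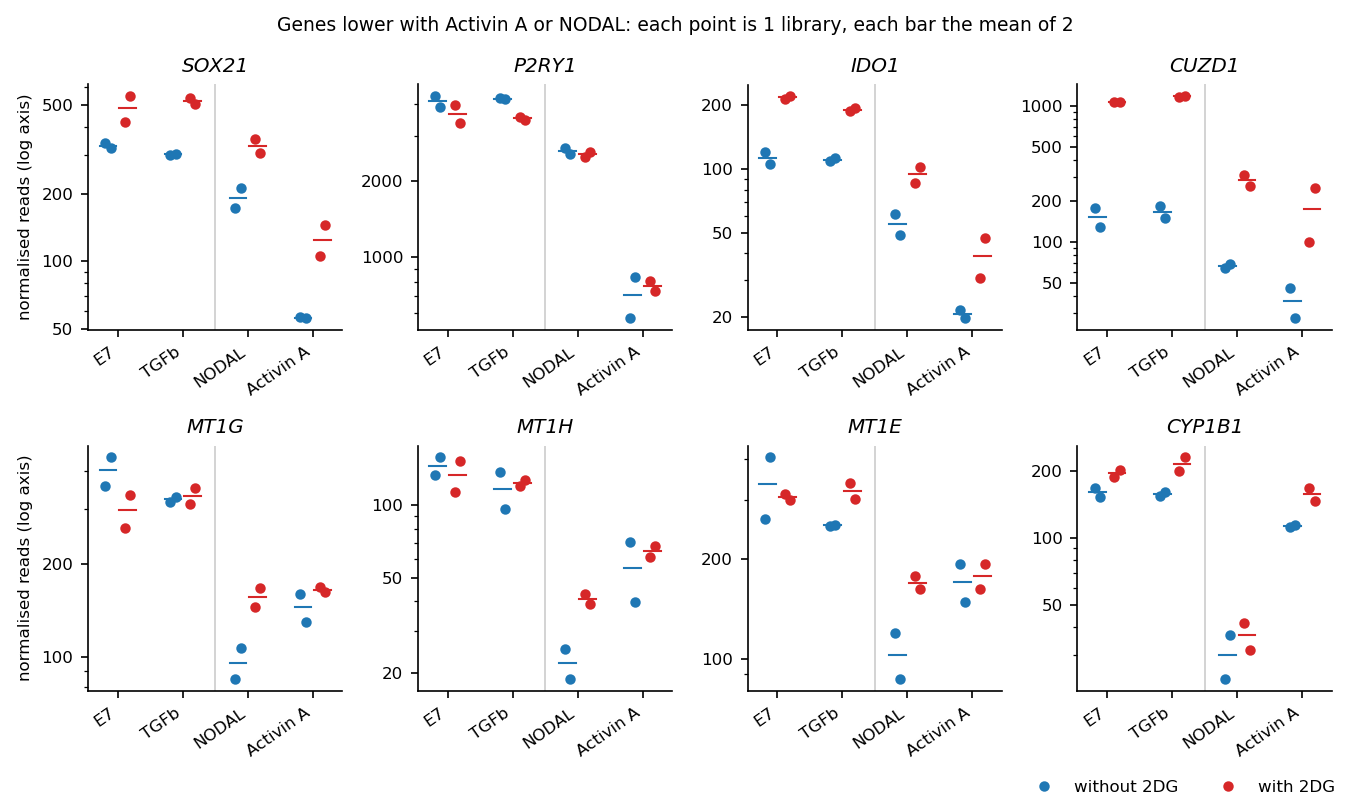
Normalised reads (log axis) of 8 genes lower on the Activin A or NODAL side, by medium. Each point is 1 library, each bar the mean of 2, blue is without and red with 2DG, and a grey line separates the sides; SOX21, P2RY1, IDO1 and CUZD1 are lowest with Activin A, while MT1H and CYP1B1 are lowest with NODAL.

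Metallothioneins are small cysteine-rich proteins that bind zinc and copper. Of 11 tested genes of the metallothionein and zinc list, 7 fell (4 with libraries of a group allowed to correlate) and none rose, the median was -0.46, and all 11 log2 changes lay between -1.60 and -0.20. MT1G (chr16:56666731-56668065) was 358 and 445 normalised reads in E7, 317 and 330 with TGFb, 84.5 and 106 with NODAL and 159 and 130 with Activin A. With 2DG it was 261 and 335, 312 and 351, 145 and 168, and 168 and 162 in the same order of media. Every library with Activin A or NODAL lay below every library without them, and the log2 difference was -1.28 ± 0.14 (SE; limma, adjusted p = 2.7e-05). MT1H (chr16:56669814-56671129) was 96.5 to 159 on the E7 or TGFb side, 39.6 to 70.4 with Activin A and 18.9 to 42.7 with NODAL, a difference of -1.60 ± 0.22 (adjusted p = 0.00014). MT1E was 252 to 406 against 86.7 to 192, a difference of -0.99 ± 0.14 (adjusted p = 0.00016). MT1X was 202 to 497 against 93.5 to 248 with overlap, a difference of -0.83 ± 0.18 (adjusted p = 0.0063, and 0.064 with 1 value per group). These genes lie side by side on chromosome 16 and are close copies, so how reads were divided among them is uncertain.

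The promoters of MT1H and MT1X are shown because metal response elements, the sites read by the zinc-sensing factor MTF1, are dense in them. Each is the 250 bases before the RefSeq start (GRCh38.p14), on the plus strand, at chr16:56669564-56669813 for MT1H and chr16:56682220-56682469 for MT1X. Capitals mark TGCGCNC or TGCACNC on either strand.
MT1H: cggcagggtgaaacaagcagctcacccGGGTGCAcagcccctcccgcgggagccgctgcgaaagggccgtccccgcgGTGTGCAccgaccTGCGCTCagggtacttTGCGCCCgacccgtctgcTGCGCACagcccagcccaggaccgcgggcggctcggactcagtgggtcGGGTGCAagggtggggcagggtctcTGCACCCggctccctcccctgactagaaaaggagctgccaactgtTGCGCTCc
MT1X: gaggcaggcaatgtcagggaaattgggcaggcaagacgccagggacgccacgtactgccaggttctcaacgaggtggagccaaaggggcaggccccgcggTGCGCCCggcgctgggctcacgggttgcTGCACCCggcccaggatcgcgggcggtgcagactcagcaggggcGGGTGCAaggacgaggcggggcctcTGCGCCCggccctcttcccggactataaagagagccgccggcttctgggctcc
MT1H held 8 matches between 223 and 8 bases upstream, and MT1X held 4 between 150 and 53 bases upstream. At least 1 match was in 24.8% of all promoter windows, 40.3% of those of tested genes, 42.9% of genes called higher and 44.6% of genes called lower. MTF1 itself had a log2 difference of -0.20 (limma, adjusted p = 0.39).

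Genes of metabolism and matrix were also among the calls. SLC16A1, the lactate and pyruvate transporter MCT1, was 10970 to 13260 on the E7 or TGFb side and 6761 to 9087 on the other, with no overlap, a difference of -0.59 ± 0.07 (SE; limma, adjusted p = 3.5e-05). SLC16A3, the transporter MCT4 that exports lactate, went up by 0.89 ± 0.14 (adjusted p = 0.0005), from 74 to 104 without 2DG and 46.8 to 71.2 with it to 143 to 249 and 78.4 to 120. Among 24 glycolysis genes, 2 rose and 3 fell, against 6.45% and 5.73% of all genes, with a median of -0.04. COL6A2, a collagen VI chain, was 822 to 1035 against 1206 to 1683 with no overlap, a difference of 0.62 ± 0.08 (adjusted p = 8.8e-05). Of 30 matrix genes, 5 rose and 1 fell (1 to 2 fell when any 1 library was left out), beside the same shares of all genes. With 1 value per group 1 matrix gene passed as higher. S100A11, a calcium-binding protein of membranes and actin, rose by 0.96 ± 0.13 (adjusted p = 0.00013).

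Biosynthesis lists fell by small amounts in many members. Of 28 ribosome biogenesis genes, 12 fell and none rose, with a median of -0.23, against 5.73% lower among all genes. Without 2DG 15 fell (median -0.34, against 3.4% of all genes), and with 2DG 1 did (median -0.09, against 0.694%). With 1 value per group 0 passed, and without the TGFb medium 1 did. DDX21, a nucleolar helicase, fell by 0.45, and WDR43, a factor of the small subunit processome, by 0.38, from 3088 to 3585 to between 2263 and 2803 (limma, adjusted p = 0.0011 and 0.00048). Of 29 genes of the ATF4 amino acid response, 13 fell and none rose, with a median of -0.32 (9 to 18 fell when any 1 library was left out). Taken apart, 0 of them passed as lower without 2DG and 2 with it, with medians of -0.24 and -0.49. PSAT1, an enzyme of serine synthesis, fell by 0.42, and SLC7A11, a cystine transporter, by 0.64 (adjusted p = 0.013 and 0.021). SLC7A11 was 536 to 723 without and 3829 to 4907 with 2DG on the E7 or TGFb side, against 283 to 478 and 1535 to 5160.3, so it overlapped with 2DG. With the libraries of a group allowed to correlate, 7 ribosome biogenesis genes and no ATF4 gene passed, and without either the E7 or the TGFb medium no ATF4 gene passed. HSPA9, the mitochondrial chaperone mortalin, fell by 0.43 (adjusted p = 0.00041).

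Several lists held no called gene. None of 49 cytosolic ribosomal proteins, 48 nuclear subunits of oxidative phosphorylation, 13 mitochondrial genes or 6 fibroblast markers passed in the main limma fit, and their median log2 changes were -0.03, -0.02, 0.10 and 0.12. In alternative settings, up to 6 mitochondrial genes, 4 oxidative phosphorylation subunits and 2 fibroblast markers passed as higher. At most 1 ribosomal protein, 1 oxidative phosphorylation subunit and 1 fibroblast marker passed as lower. The share of reads from the mitochondrial genome was 5.46% to 5.88% on the E7 or TGFb side and 5.56% to 6.69% on the other. It was 6.12% to 6.69% in the NODAL libraries. With Activin A it was 6.64% in replicate 1 without 2DG and 5.56% to 5.78% in the other libraries. TXNIP, an inhibitor of glucose uptake whose gene responds to sugar phosphates, was 42.2 to 83.2 without and 1610.2 to 1804 with 2DG on the E7 or TGFb side, against 60.3 to 97.2 and 992 to 2034. The TXNIP difference between the sides was 0.02 (adjusted p = 0.96). HSPA5, the ER chaperone BiP, had a difference of -0.21 that missed the threshold (adjusted p = 0.19). Without the Activin A medium HSPA5 was at -0.44 (adjusted p = 0.00023), without the NODAL medium at 0.03 (0.89), and without the 2 libraries with Activin A and no 2DG at -0.35 (0.0068).

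The pooled comparison gives equal weight to both proteins, so each was also set against the same 8 E7 or TGFb libraries. These contrasts share their controls, and their values stand side by side with no measure of likeness between them. LEFTY2 was higher by 5.91 with Activin A and by 2.39 with NODAL (log2), and LEFTY1 by 4.66 and 2.55. MIXL1 was higher by 3.80 and 1.35, and GSC by 2.32 and 1.35. OLIG3 was at -4.15 and -2.39, SOX21 at -2.24 and -0.66, and IDO1 at -2.39 and -1.06. MT1H was at -1.13 with Activin A and -2.07 with NODAL, MT1E at -0.80 and -1.19, and MT1G at -1.12 and -1.45. EOMES was at 3.01 and 0.25, the latter with an adjusted p of 0.61 (limma).

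**Figure D4:**
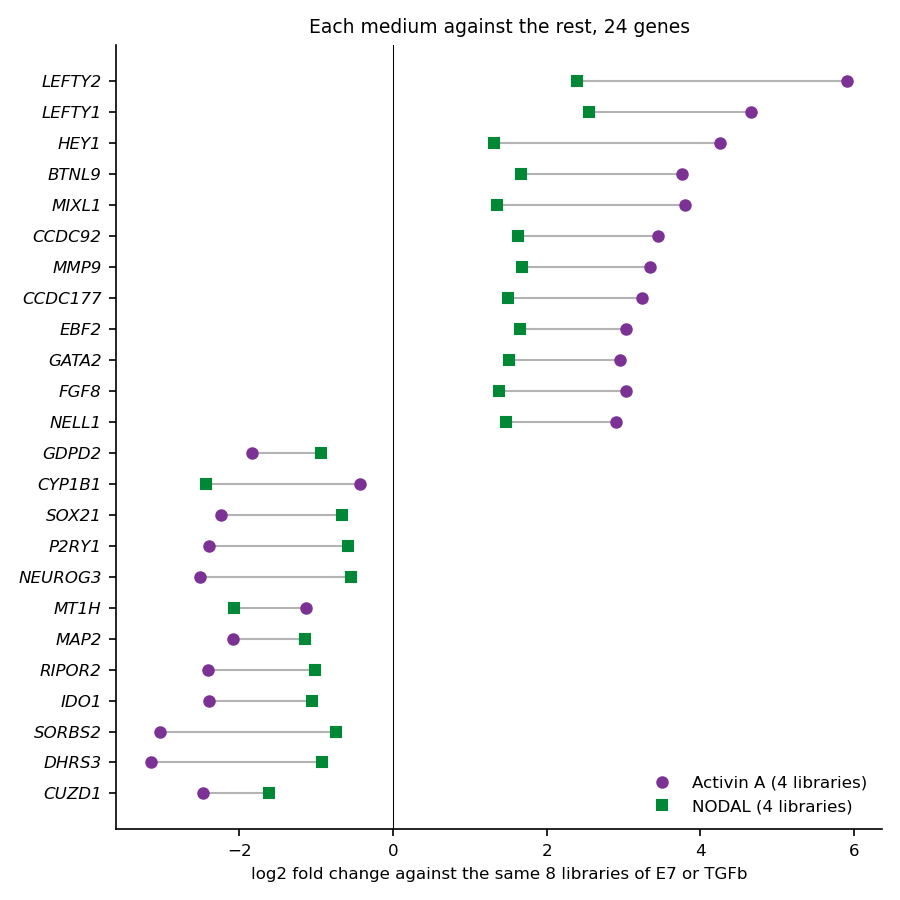
Log2 change of 24 genes with Activin A (purple circles, 4 libraries) and with NODAL (green squares, 4 libraries), each against the same 8 libraries of E7 or TGFb. All 12 higher genes sit further right with Activin A, and CYP1B1 and MT1H are the lower genes that sit further left with NODAL.

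A direct contrast of Activin A with NODAL, at the same dose by weight and the same time, called 1101 genes higher (6.59%) and 1310 lower (7.84%) with Activin A of 16714, 2411 (14.4%) in all. That count came to 3618 without replicate 1 of Activin A without 2DG. All 12 genes with the largest rise under the naming rule were higher with Activin A than with NODAL in that contrast, by 3.51 for LEFTY2 (limma, adjusted p = 5.8e-05), 2.93 for HEY1 (3.7e-05) and 2.44 for MIXL1 (1.8e-05). Of the 12 with the largest fall under that rule, 9 were lower with Activin A, among them P2RY1 (-1.82, adjusted p = 3.5e-08), SOX21 (-1.58, 1.3e-06) and DHRS3 (-2.22, 0.00014). CYP1B1 (2.00, 1.7e-07) and MT1H (0.94, 0.007) were lower with NODAL, and MAP2 was not called (-0.94, 0.061). MT1G and MT1E were not called either, at 0.34 (adjusted p = 0.24) and 0.39 (0.15). Over all 1078 higher genes, 314 (29.1%) differed between the proteins, 259 of them further from the other side with Activin A and 55 with NODAL. Over the 958 lower genes, 237 (24.7%) differed, 200 further with Activin A and 37 with NODAL.

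Within the other side, TGFb against plain E7 called no gene of 16714 (0%) in limma, where the smallest adjusted p was 0.217 and 585 genes had an unadjusted p under 0.05. edgeR called none and DESeq2 called 1, N4BP2L1 at -1.24 (adjusted p = 0.044), which is named because it is the sole call. The 12 most raised genes under the naming rule differed by -0.41 to 0.20 and the 12 most lowered by -0.27 to 0.24 between TGFb and E7. LEFTY1 differed by -0.24 (adjusted p = 0.9) and MIXL1 by 0.00 (adjusted p = 1).

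The side comparison was then made apart in each 2DG state, which gives sets of libraries with none in common. Without 2DG, 644 genes were higher (3.85%) and 569 lower (3.4%), 1213 in all (7.26%). With 2DG, 198 were higher (1.18%) and 116 lower (0.694%), 314 in all (1.88%). Higher genes called in both states numbered 118, which is 18.3% of the first and 59.6% of the second set. Lower genes called in both numbered 66, which is 11.6% and 56.9%. No gene was called in opposite directions. Across all 16714 genes the changes in the 2 states had a Pearson r of 0.573 and a Spearman rho of 0.454, a description over genes that share libraries and base composition.

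**Figure D5:**
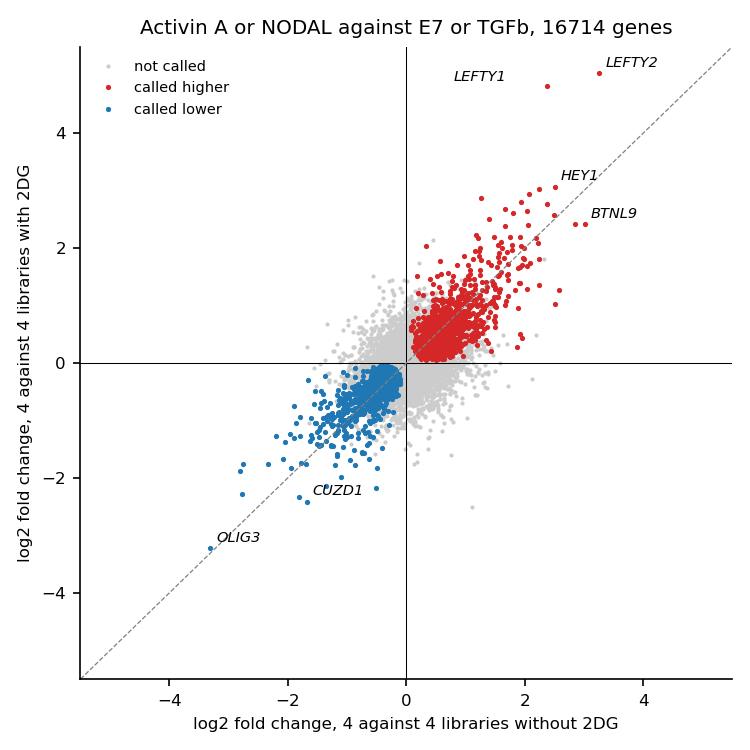
Log2 change of 16714 genes between the sides without 2DG (x axis) and with 2DG (y axis). Red and blue points are genes called higher and lower over all 16 libraries, grey points were not called, and the dashed line marks equal change; LEFTY1 lies at 2.38 and 4.83 and OLIG3 at -3.31 and -3.23.

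LEFTY1 differed by 2.38 without 2DG and by 4.83 with it (limma, adjusted p = 0.023 and 0.00071). LEFTY2 differed by 3.25 and 5.05 (0.04 and 0.0081), while OLIG3 was nearly level at -3.31 and -3.23 (0.0014 and 0.0034). MT1G was at -1.61 and -0.96 (7.9e-05 and 0.0063). The change of the difference with 2DG, tested as an interaction, passed for no gene (0%) in limma, where the smallest adjusted p was 0.116 and 1122 genes had an unadjusted p under 0.05. It was 2.45 for LEFTY1 (adjusted p = 0.68). edgeR called none, and DESeq2 called 9, from -0.73 for APELA to 0.70 for HMGCS1, the others being MCL1, NUDCD1, CHORDC1, SUCLA2, FAM98B, SOX12 and EEF1A2, all named after their values were seen.

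Single libraries weighed on the counts within a 2DG state. In place of the 1213 genes called without 2DG, a refit called 390 without replicate 1 of E7, 802 without its replicate 2, 733 without replicate 2 of TGFb, and 688 and 677 without replicates 1 and 2 of NODAL. In place of the 314 called with 2DG, a refit called 141 and 119 without replicates 1 and 2 of E7 with 2DG, 115 and 96 without those of TGFb with 2DG, and 114 without replicate 1 of Activin A with 2DG. It called 533 without replicate 1 of Activin A without 2DG, a library that enters that fit only through the shared estimate of spread.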

How the data were processed

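RNA of 16 libraries (8 groups of 2) was read by paired-end sequencing of poly(A) RNA. Per the submitters' processing notes, the build was hg38 and the tools were Trimmomatic 0.36, STAR, featureCounts 1.5.3 and DESeq2 1.26.0. The STAR version and the strand setting are not given in the sources used here, so antisense and overlapping genes cannot be separated. The deposited values are a signal per gene: by the values themselves, counts that the authors had divided by a size factor per library. All 283808 values came back as whole reads (100%, tolerance 1e-06) after division by the step of each library. Genes that reached 10 in 2 or more libraries (16714 of 17738) were tested on log2(value + 1) with limma 3.58.1 (R 4.3.3), with trend, 2DG as a covariate, all 16 libraries in the fit and Benjamini-Hochberg adjustment at 0.05; a fold on this scale understates the change of low genes. Whole reads were tested with edgeR 4.0.16 and DESeq2 1.42.0 as alternatives. The script was tested on simulated data. Positions come from GENCODE 29, which matched 17321 genes.

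Named genes were the 12 largest calls in each direction whose higher side averaged at least 100 and whose sides did not overlap in either 2DG state, the most changed called members of each list (4 at most), and a fixed set of pathway genes. The members, lists and rules were chosen with earlier results of these data known, so no list count is independent support. FOXH1 and MTF1 were added after their values were seen. Where a sentence follows one naming limma and gives an adjusted p, it comes from the same fit; ± is the standard error.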

Additional observations from a re-analysis of the deposited data

Results flagged for a closer look

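Among 164 groups of 4 libraries (1 side in 1 2DG state, for 41 genes), 5 held a library set apart by a gap that is large for the group's whole range; chance gives about 1 in 20 such groups. LEFTY1 was 613 normalised reads in replicate 2 of E7, with the other 3 libraries at 446 to 463. SKIL was 5820 in replicate 1 of E7 with 2DG, against 4710 to 4890. TXNIP was 2030 in replicate 2 of Activin A with 2DG, against 992 to 1060. SOX2 was 4880 in replicate 1 of E7 with 2DG, against 5240 to 5280. RIPOR2 was 41.1 in replicate 1 of Activin A with 2DG, against 83.8 to 86.3.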

How the results depend on the processing

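The 2036 calls of the side comparison became 3692 with a mean for each of the 8 groups, 964 with libraries of a group allowed to correlate, 201 with 1 value per group, 273 with a log2 change of at least 1, and 4667 with library weights. They became 3685 without the Activin A medium, 255 without the TGFb medium and 655 without the plain E7 medium, and 1530 to 2258 without any 1 library. Scaling each library to the same total gave 1455 higher and 658 lower genes, with a median log2 change of 0.037. Without 2DG the 1213 calls became 404 with only those 8 libraries and 390 to 1693 without any 1 library; with 2DG the 314 became 678 in DESeq2 and 96 to 533, and 369 (164 higher, 205 lower, 206 shared with the 314) with only those 8 libraries. Activin A against NODAL, with 2411, gave 1357 with only those 8 libraries and 1669 to 3618 without any 1. The change with 2DG went from 0 to 9 in DESeq2 and from 0 to 1 without any 1 library: TSHZ2 at -3.99 without replicate 1 of TGFb and TRIB3 at -1.57 without replicate 2 of Activin A with 2DG. TRIB3 was 1137 normalised reads in that replicate, and 372 to 448 in the other Activin A or NODAL libraries with 2DG. On the E7 or TGFb side with 2DG it was 778 to 1024. TGFb against E7 went from 0 to 1 in DESeq2 and stayed at 0 without any 1 library. Alternatives chosen after seeing the data were removal of length and GC trends (2459 for the sides, 640 with 2DG, 1 for the change with 2DG) and leaving out the 2 libraries with Activin A and no 2DG (1811 for the sides, 2109 without 2DG). The cause of these shifts was not tested.

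Replicate numbers did not pair the samples: of 28 pairs of groups, 3 had correlated deviations above 0.1, in a range of -0.39 to 0.24. With the replicate number as a block the 6 counts were 1847, 953, 243, 0, 2231 and 0 for the sides, without 2DG, with 2DG, the change with 2DG, Activin A against NODAL, and TGFb against E7.

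Differences that had missed the threshold turned sign. SKIL was -0.04 and POU3F1 0.14 without the Activin A medium, and HSPA5 was 0.03 without the NODAL medium. TXNIP was -0.01 with quantile scaling and with a pseudocount of 8, -0.08 in edgeR, -0.02 with library weights and -0.1 without the TGFb medium, and -0.07 to 0.11 without any 1 library.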

Other observations

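The genes below had some of the smallest adjusted p-values in the side comparison and were chosen after their values were seen. The fit holds no term for the 2 proteins, so a small p favours genes that stand alike with Activin A and with NODAL, and their likeness is given as a description only. APELA, which encodes a secreted peptide (Elabela, or Toddler) that binds the apelin receptor and is made by human embryonic stem cells, was 952, 969, 761 and 790 normalised reads in the 4 E7 or TGFb libraries without 2DG and 1546, 1552, 1724 and 1657 with it. With Activin A it was 452, 466, 458 and 592, and with NODAL 457, 417, 469 and 501, each without and then with 2DG. The sides separated in all 16 libraries, by -1.31 ± 0.11 (log2, SE; limma, adjusted p = 2.9e-06), and Activin A and NODAL differed by 0.09 (adjusted p = 0.77). MME (CD10, a cell-surface peptidase) was 406 to 522 on the E7 or TGFb side and 177 to 270 on the other, a difference of -1.01 ± 0.09 (adjusted p = 4e-06; Activin A against NODAL -0.33, adjusted p = 0.04). BAIAP3, a protein of vesicle traffic, was 46.8 to 84.3 against 124 to 160, a difference of 1.13 ± 0.10 (adjusted p = 4e-06; Activin A against NODAL -0.04, adjusted p = 0.9). PSKH1, a serine kinase, was 337 to 473 against 526 to 750.5, a difference of 0.69 ± 0.06 (adjusted p = 4e-06; Activin A against NODAL 0.16, adjusted p = 0.21).

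LIMCH1, an actin-linked protein, was 18.2 to 29.4 without and 107 to 158 with 2DG on the E7 or TGFb side, against 0.94 to 3.77 and 19.1 to 50.5, a difference of -2.53 ± 0.23 (limma, adjusted p = 4e-06), and Activin A and NODAL differed by 0.11 (adjusted p = 0.86). EBF3, a relative of EBF2, was 100.1 to 129 against 161 to 242, a difference of 0.81 ± 0.09 (adjusted p = 3.2e-05), with 0.15 between Activin A and NODAL (adjusted p = 0.46), where EBF2 differed by 1.37 (adjusted p = 0.0012). AL627309.8, an uncharacterised transcript, had the smallest adjusted p of all: it was 37 to 59.8 against 130 to 189, a difference of 1.72 ± 0.12 (adjusted p = 2.4e-07), and 0.03 between the proteins (adjusted p = 0.92). AL627309.7, annotated as a processed pseudogene (chr1:137682-137965), rose by 1.74 and may share reads with near-identical copies. Whether these level differences belong to the proteins or to how the libraries were handled cannot be told apart.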
